A study of Gallus gallus with 6 samples.

Results

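Iron uptake, storage and release genes and the heme oxygenases of chick lens cells were examined as a group of 8 genes, TFR2, FTH1, NCOA4, ACO1, IREB2, FBXL5, HMOX1 and HMOX2. They were taken by symbol from the 17340 loci of the RNA-seq table, by a rule that uses no measured value. The choice of genes was still made with earlier results of these data known. All 8 had a row. A locus was tested where its mean over the libraries was at least 1 FPKM (fragments per kilobase of transcript, scaled to the mapped reads of a library), which 9816 loci and all 8 genes reached. The study exposed primary lens epithelial cells of White Leghorn chick embryos, taken at embryonic day 10 and grown on laminin in a culture medium with fetal bovine serum, to dimethyloxalylglycine (DMOG, 1 mM) over 4 h, and 3 biological replicates of treated cells were compared with 3 of untreated cells. Both groups thus shared strain, stage, substrate and serum, and a vehicle for the untreated cells, or how many embryos went into a replicate, was not given in the sources used here. DMOG inhibits 2-oxoglutarate dioxygenases, among them the prolyl hydroxylases that mark HIF1α for degradation, so it reaches more enzymes than the HIF pathway alone.

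Animal cells take up iron bound to transferrin through the transferrin receptor, keep the surplus inside the ferritin shell and recover it when NCOA4 carries ferritin to the lysosome. Iron regulatory proteins 1 and 2, the products of ACO1 and IREB2, bind hairpins in messenger RNAs when iron is scarce: they block translation of ferritin and protect the transferrin receptor message from decay. FBXL5 senses iron and oxygen and marks iron regulatory protein 2 for destruction. Heme oxygenases open the heme ring and set its iron free. HMOX1 is the inducible enzyme and HMOX2 the constitutive one. In people, mutations that stop the iron regulatory proteins from binding the ferritin light chain message cause early cataract, which ties this circuit to lens transparency.

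Among these genes, TFR2 and HMOX1 were higher in all 3 DMOG-treated libraries than in any untreated library, by 1.62-fold and 1.54-fold in the fit. FBXL5 and HMOX2 were lower in all 3. FTH1, NCOA4, ACO1 and the IREB2 locus overlapped between the groups. None of the 8 had an adjusted p under 0.05 in limma with Benjamini-Hochberg adjustment over all tested loci (0 of 8), where 0.194% of all tested loci had one. At an unadjusted p under 0.05 there were 3 of 8, beside 9% of all tested loci. The study's limits were a fold change of 0.6 or more on the log2 scale, up or down, with an unadjusted p under 0.05. At these limits, applied here to the limma fit and not to the edgeR test of the study, TFR2 and HMOX1 were higher and 0 genes were lower. Those 2 are 25.0% of the 8 genes, and 7.81% of all tested loci were at the same limits (2.84% higher and 4.97% lower). A count of 2 among 8 genes is too small to set the group apart from that background. With libraries scaled to one median the same count was 2 higher and 0 lower, beside 7.5% of all tested loci (4.21% higher and 3.29% lower), and quantile normalization gave 2 higher and 1 lower (HMOX2), beside 7.44% of all tested loci (4.18% higher and 3.26% lower). Separation without overlap was found for 2 genes upwards and 2 downwards, beside 4.47% and 11.4% of tested loci. Over the 8 genes the log2 fold change had a median of -0.14, beside -0.13 over all tested loci.

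**Figure D1:**
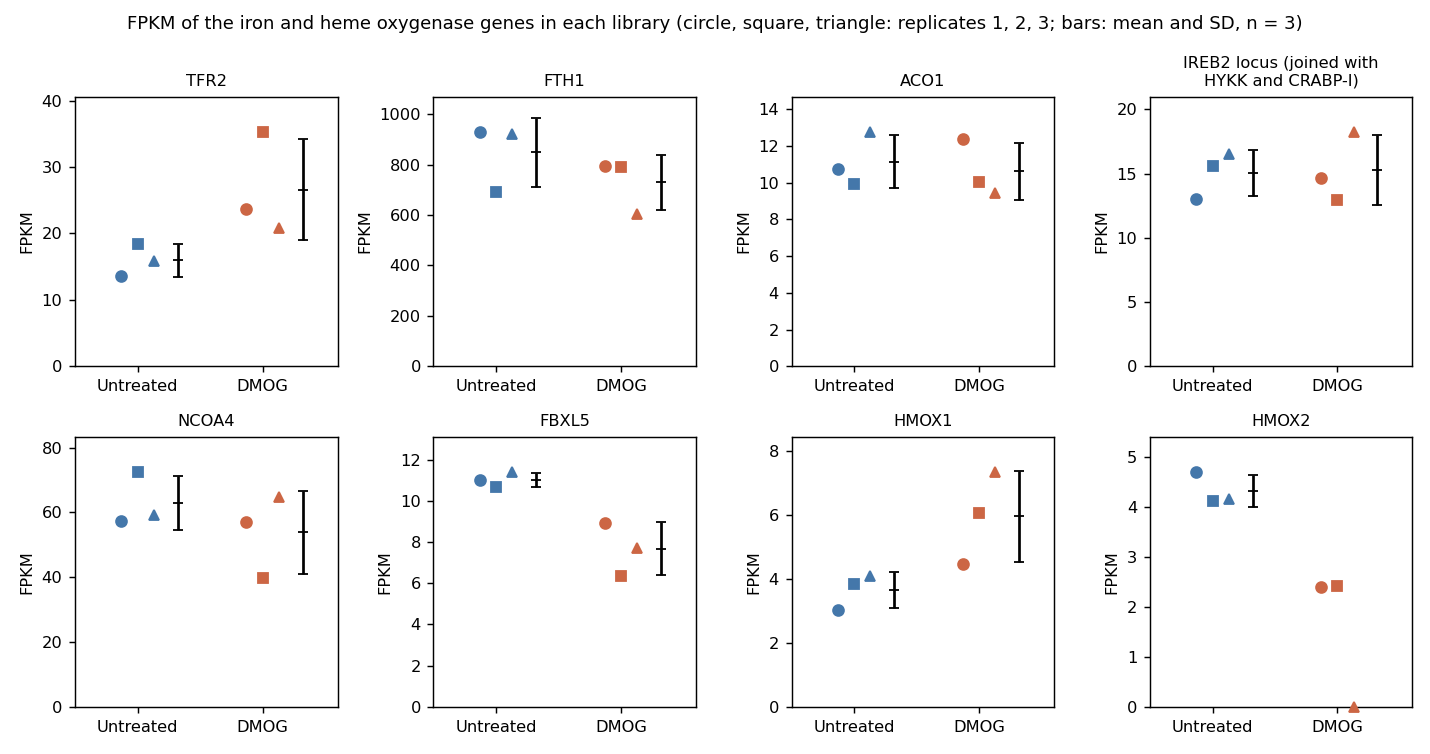
FPKM (vertical axes, starting at 0) of the 8 genes in each untreated (blue) and DMOG-treated (orange) library; bars give the mean and SD of 3 libraries and are left out for HMOX2 with DMOG, where 1 library is listed at 0. TFR2 and HMOX1 lie higher with DMOG without overlap, FBXL5 and HMOX2 lower, and the other 4 overlap.

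The depth of the libraries cannot be read from FPKM. FPKM summed to between 169980 and 212100 per library, and small RNA loci took 24.8% to 37.4% of it with DMOG and 24.0% to 28.7% without. DMOG library 3 had the highest share of small RNA and the highest share of loci listed at 0 (35.9%, against 25.2% to 33.0% in the others). With small RNA loci left out of the test, TFR2 and HMOX1 stayed at the study's limits and HMOX2 came to them (p 0.0457, limma). With libraries set to an equal sum without small RNA, TFR2 stayed (0.68), HMOX1 left the limits (0.61, p 0.0590) and HMOX2 came to them (-1.61, p 0.0428). The part of the loci listed at 0 was not tested. EGLN3, a classical HIF target, measured 57.15, 54.04 and 47.61 FPKM with DMOG, and 1.35, 2.06 and 1.87 in untreated cells. Of the lens markers, CRYAA, the αA-crystallin gene, measured 599.16 to 962.1 FPKM, and the 21 of 24 listed lens genes with a row summed to 1380.1 to 2181.5 FPKM with DMOG and 1453.7 to 2403.8 without. ASL, FOXE3 and LIM2 had no row of that name. Of 18 tested lens loci, 0 were higher and 1 lower at the study's limits, SOX2, a transcription factor of the early lens. SOX2 is listed at 0 in DMOG library 1 and reached 1.5 FPKM in DMOG library 2 and 1.23 in library 3. In untreated cells it stood at 7.32, 2.97 and 2.37 FPKM (log2 fold change -1.83, p 0.0230, adjusted p 0.461, limma). Because of the listed 0, this fold depends on the 0.5 FPKM added before the logarithm. Because red blood cells and macrophages carry much of the iron traffic of the body, their markers were read as well. Of 11 erythroid marker genes with a row, 8 were listed at 0 in every library, all globin genes included. The other 3 were ALAS2, EPB42 (5.62 to 8.24 FPKM) and SLC4A1, which is listed at 0 but for 0.52 FPKM in DMOG library 2. MARCO and the 3 C1Q genes were also listed at 0 throughout, and SPI1 reached at most 0.14 FPKM. The summed level over the blood cell markers was 12.02 to 16.63 FPKM with DMOG against 19.05 to 21.96 without, most of it at loci that join PTPRC and LYZ with other genes, and its part in the results was not tested. The endothelial genes CDH5 and PECAM1 were detected, at 4.09 to 7.99 and 2.21 to 4.92 FPKM, and the 14 mesenchymal and endothelial markers, with LUM and TWIST1 at 0, summed to 14.72 to 18.01 FPKM with DMOG and 19.18 to 22.01 without, whose part was not tested either. The blood cell list and the mesenchymal and endothelial list had 4 tested loci each. In each list 0 of these were at the study's limits and 1 was lower without overlap, beside 11.4% of all tested loci. In such bulk libraries, fewer cells of a type and less RNA per cell cannot be told apart.

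The row named TFR2 is read here as a transferrin receptor gene. RefSeq (assembly GRCg7b) lists TFR2 only as a synonym of the chicken gene TFRC, transferrin receptor 1, and the table has no row named TFRC, so the row may hold transferrin receptor 1 and not its liver-enriched mammalian relative. TFR2 is used below as the files spell it. It measured 23.71 FPKM in DMOG library 1, 35.31 in library 2 and 20.83 in library 3, and in the untreated libraries 13.54, 18.49 and 15.85 FPKM in the same order of numbers. The lowest treated library thus stood above the highest untreated one. The mean was 26.6 FPKM (SD 7.67, n = 3) with DMOG and 16.0 (SD 2.48, n = 3) without. In limma with Benjamini-Hochberg adjustment the log2 fold change was 0.69 (SE 0.24, 95% interval 0.13 to 1.26, unadjusted p 0.0230, adjusted p 0.461), or 0.82 relative to the median of all tested loci. The two-sided exact permutation test gave p = 0.1, the smallest value that 3 against 3 libraries allow.

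The same FPKM values were read as ranks within each library, a description and not further support. TFR2 stood above 88.0% to 91.8% of the 16319 loci that are not small RNA in untreated cells and above 93.5% to 96.5% of them in treated cells. The size of the change rested partly on DMOG library 2, the highest of the 6. Without that library the log2 fold change was 0.48 (unadjusted p 0.0648, limma). It was 0.59 (p 0.0803) without untreated library 1 and 0.70 (p 0.0509) without untreated library 3, and with any of these 3 left out TFR2 was outside the limits. With DMOG library 3 left out it was 0.85. Its adjusted p was between 0.341 and 0.864 over all settings tried.

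FTH1 encodes the ferritin heavy chain, which oxidizes iron as it enters the shell. It measured 794.39, 789.55 and 603.62 FPKM with DMOG against 929.98, 691.53 and 922.54 FPKM without. The groups overlap, since untreated library 2 lay below 2 of the treated libraries. Means were 729 (SD 109) and 848 (SD 136) FPKM, each over 3 libraries. Its fitted log2 fold change was -0.22 (SE 0.21, 95% interval -0.70 to 0.27, adjusted p 0.787 in limma), or -0.09 relative to all tested loci. With quantile normalization it was -0.49 (unadjusted p 0.0103, adjusted p 0.364), still inside the fold limit. FTH1 was among the most abundant messages of these cells, 7th to 15th in the 6 libraries when small RNA loci are set aside.

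NCOA4, the receptor that delivers ferritin to autophagosomes, was the next most abundant gene of the group. It measured 57.04, 39.8 and 64.78 FPKM with DMOG against 57.22, 72.33 and 59.07 FPKM without. The highest treated library exceeded 2 untreated ones, and DMOG library 2 was the lowest of all 6. On the log2 scale the fitted change was -0.24 (SE 0.22, 95% interval -0.76 to 0.27, adjusted p 0.774 in limma). It was -0.04 without DMOG library 2, so the difference rested on that library.

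For the 2 iron regulatory protein genes no difference was detectable. ACO1, whose product is either the cytosolic aconitase with its iron-sulfur cluster or the RNA-binding protein without it, measured 12.36, 10.06 and 9.43 FPKM with DMOG against 10.75, 9.93 and 12.77 FPKM without. Treated and untreated values were interleaved. In the fit the log2 fold change was -0.07 (SE 0.20, 95% interval -0.55 to 0.41, adjusted p 0.945 in limma), and its sign turned, to 0.06, when the libraries were scaled to one median. The symbol IREB2 stands at a locus that joins it with HYKK, a hydroxylysine kinase gene, and CRABP-I, a retinoic acid binding protein gene. These lie side by side in RefSeq in the order HYKK, IREB2, CRABP1, so the reads of the locus cannot be divided among them. That locus measured 14.66, 12.92 and 18.25 FPKM with DMOG against 13.04, 15.61 and 16.5 FPKM without. DMOG library 2 was the lowest and DMOG library 3 the highest of the 6. Its fitted log2 fold change was 0.01 (SE 0.21, 95% interval -0.47 to 0.49, adjusted p 0.990 in limma), and it was -0.12 without DMOG library 3. The intervals leave room for changes of up to about 0.5 in either direction at both loci.

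FBXL5, the iron- and oxygen-binding subunit of the ubiquitin ligase that removes iron regulatory protein 2, measured 8.94, 6.36 and 7.72 FPKM with DMOG against 11, 10.69 and 11.38 FPKM without. All treated libraries lay below all untreated ones, and the untreated libraries differed little among themselves, with an SD of 3.14% of their mean. The mean was 11.02 FPKM (SD 0.346, n = 3) in untreated and 7.67 FPKM (SD 1.29, n = 3) in treated cells, a ratio of means of 0.696. On the log2 scale the fitted change was -0.51 (SE 0.20, 95% interval -0.98 to -0.03, unadjusted p 0.0388, adjusted p 0.537 in limma), which is under the fold limit of 0.6. The two-sided exact permutation test gave p = 0.1. Relative to the median of all tested loci the change was -0.38, and when the libraries were scaled to one median the unadjusted p was 0.0965. Only without DMOG library 1 did FBXL5 come to the limits, at -0.62 (unadjusted p 0.0283). With any other single library left out, its unadjusted p in limma was from 0.0607 to 0.104. With all libraries kept, it was 0.0804 under quantile normalization, 0.0986 with the replicate number as a block and 0.0513 without a mean-variance trend. Genes for its partners in the ligase, SKP1, CUL1 and RBX1, were tested and none was at the limits.

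**Figure D2:**
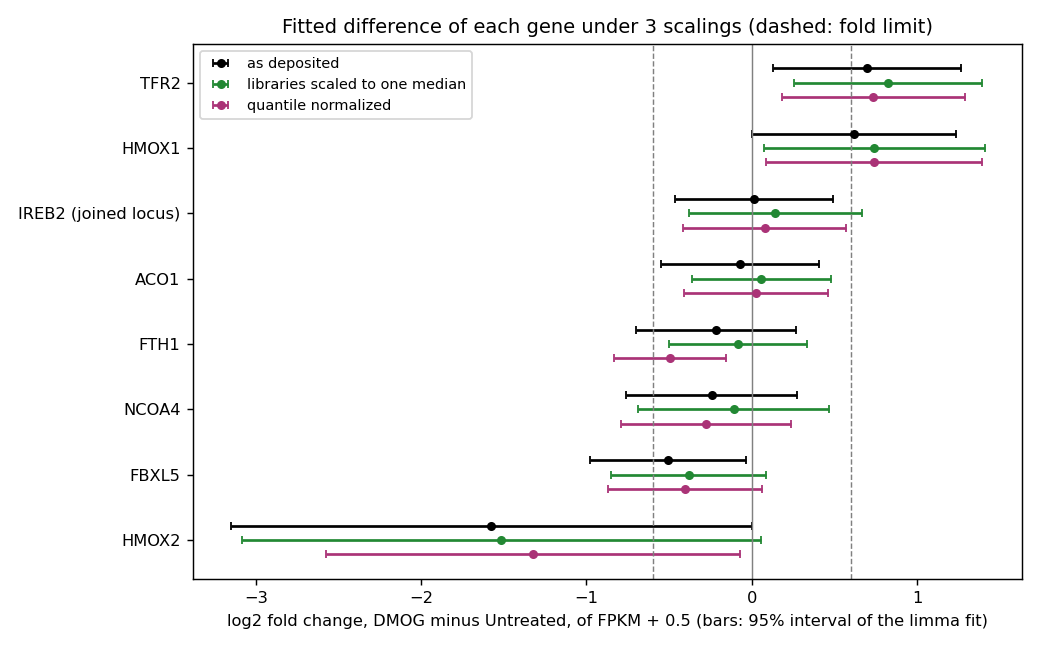
Log2 fold change of FPKM + 0.5 (horizontal axis, DMOG minus Untreated) with its 95% interval for each gene, with values as deposited (black), scaled to one median (green) and quantile normalized (purple); dashed lines mark the fold limit of 0.6. The fitted values of TFR2 and HMOX1 (higher) and of HMOX2 (lower) lay beyond the limit under all 3 scalings, with intervals that reached inside it. ACO1 changed sign with scaling, and the interval of HMOX2 was the widest of the 8.

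For the heme oxygenases the fitted values had opposite signs, and neither had an adjusted p under 0.05. HMOX1 measured 4.48 FPKM in DMOG library 1, 6.06 in library 2 and 7.33 in library 3. Untreated libraries 1, 2 and 3 had 3.03, 3.85 and 4.09 FPKM. The groups did not overlap, but DMOG library 1 stood only a little above untreated library 3. Means were 5.96 (SD 1.43, n = 3) and 3.66 FPKM (SD 0.556, n = 3). In the fit the log2 fold change was 0.62 (SE 0.26, 95% interval 0.0032 to 1.24, unadjusted p 0.0491, adjusted p 0.554 in limma), or 0.75 relative to all tested loci. The two-sided exact permutation test gave p = 0.1. HMOX1 sat at the edge of both limits. It kept them without DMOG library 1 (0.79, p 0.0253) and lost them when any of the other 5 libraries was left out, with log2 fold changes of 0.60 without DMOG library 2, 0.47 without DMOG library 3, and 0.51, 0.66 and 0.70 without untreated libraries 1, 2 and 3.

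HMOX2 measured 2.39 FPKM in DMOG library 1 and 2.42 in library 2, and it is listed at 0 in library 3. The untreated libraries measured 4.69, 4.11 and 4.16 FPKM. The treated values thus lay below the narrow untreated range in every library. The fitted log2 fold change was -1.57 (SE 0.68, 95% interval -3.15 to 0.0020, unadjusted p 0.0502, adjusted p 0.554 in limma), which depends on the pseudocount of 0.5 FPKM because of the listed 0. Without DMOG library 3 it was -0.73 (95% interval -1.36 to -0.09, unadjusted p 0.0308), which put HMOX2 at the study's limits. HMOX2 was also at them without DMOG library 1 (-1.99, p 0.0325) or DMOG library 2 (-2.001, p 0.0326). With a pseudocount of 0.1 it was -2.37 and with 1 it was -1.23.

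**Figure D3:**
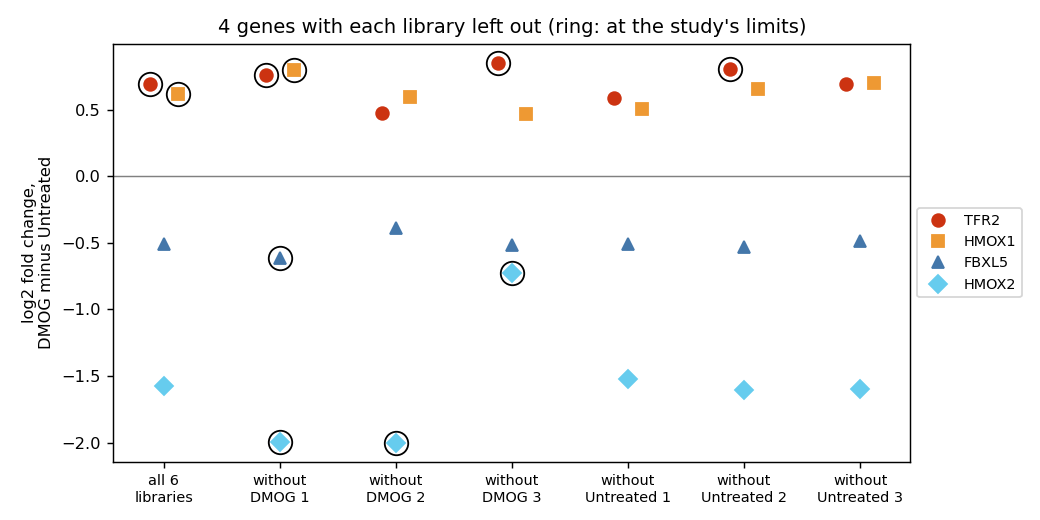
Log2 fold change (vertical axis, DMOG minus Untreated) of the 4 genes that separated the groups, with all 6 libraries and with each library left out in turn; a ring marks values at the study's limits. No sign changed, TFR2 kept the limits in 3 of 6 cases and HMOX1 in 1 of 6, and HMOX2 shrank from -1.57 to -0.73 without DMOG library 3.

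Levels were ranked by FPKM, which is per transcript length. In untreated cells the order of mean levels was FTH1 (848 FPKM), NCOA4 (62.9), TFR2 (16.0), the IREB2 locus (15.1), ACO1 (11.2), FBXL5 (11.02), HMOX2 (4.32) and HMOX1 (3.66). FTH1 stood 13.5-fold above NCOA4. TFR2 and the IREB2 locus overlapped in level, as did ACO1 and FBXL5, and these neighbours in the order did not differ beyond their spread. The other neighbours did not overlap, although the lowest HMOX2 value (4.11 FPKM) was barely above the highest HMOX1 value (4.09 FPKM). In treated cells the first 6 places were in the same order, and the heme oxygenases had changed places, with HMOX1 at 5.96 FPKM and HMOX2 in the last place. There TFR2 no longer overlapped the IREB2 locus, at 1.74 times its mean, and FBXL5 no longer overlapped ACO1. FBXL5 and HMOX1 overlapped in treated cells.

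Ratios of 2 genes within a library do not depend, apart from the pseudocount, on a single factor that scales the whole library. Quantile normalization is not such a factor and can change them. The ratios of 3 pairs were compared with values as deposited. The log2 ratio of HMOX2 to HMOX1 was 0.56, 0.08 and 0.02 in untreated libraries 1, 2 and 3 and -0.79, -1.17 and -3.97 in DMOG libraries 1, 2 and 3. The constitutive isoform thus had the higher value without DMOG and the inducible one with it, in all 3 libraries of each group. In untreated libraries 2 and 3, however, the 2 genes were almost level. The mean log2 ratio differed between the groups by -2.19 (two-sided exact permutation p = 0.1, Benjamini-Hochberg over the 3 pairs 0.15). Without DMOG library 3, where HMOX2 is listed at 0, the difference was -1.20. Because HMOX1 lay higher and HMOX2 lower without overlap, this ratio had to separate the groups and its exact permutation p had to be 0.1. It is therefore not a further result beside those of the 2 genes. The log2 ratio of TFR2 to FTH1 was -6.05, -5.19 and -5.82 without DMOG and -5.04, -4.46 and -4.82 with it. Receptor message was therefore higher relative to ferritin heavy chain message in every treated library, by a mean of 0.91 (exact permutation p = 0.1, adjusted 0.15) with a range of 0.73 to 1.16 when each library was left out. The log2 ratio of the IREB2 locus to ACO1 was 0.27, 0.63 and 0.36 without DMOG and 0.24, 0.35 and 0.92 with it. These groups overlapped, with a mean difference of 0.08 (exact permutation p = 0.9, adjusted 0.9). With 3 libraries a group, no ratio could reach a p under 0.1.

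**Figure D4:**
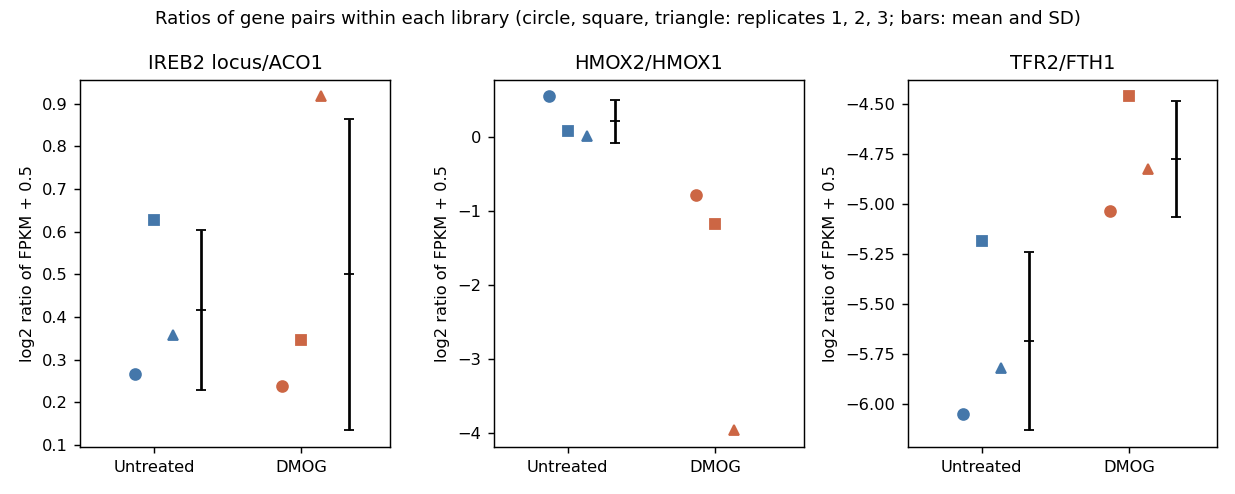
Log2 ratio of FPKM + 0.5 (vertical axes) of 3 gene pairs within each untreated (blue) and DMOG-treated (orange) library, with the mean and SD of 3 libraries, left out for HMOX2/HMOX1 with DMOG. HMOX2/HMOX1 was above 0 in all untreated and below 0 in all treated libraries, TFR2/FTH1 was higher in all treated libraries, and the IREB2 locus/ACO1 ratio overlapped. The separation of HMOX2/HMOX1 follows from that of its 2 genes.

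Other genes of iron and heme biology were read from 6 lists. Over these lists 73 loci were tested, and at the study's limits 2 were higher and 5 lower, while none had an adjusted p under 0.05 (0 of 73, with 7 at an unadjusted p under 0.05, in limma, beside 9% of all tested loci). All tested loci gave 2.84% higher and 4.97% lower at those limits. The 2 counts are therefore close to the background, and the genes are described one by one.

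In iron uptake, 8 of 16 listed genes were tested, 1 was higher and 1 lower. LRP2 (megalin), an endocytic receptor that takes up many carrier proteins in kidney, measured 21.16, 23.59 and 10.76 FPKM with DMOG against 5.79, 5.95 and 12.34 without. DMOG library 3 and untreated library 3 overlapped. Its fitted log2 fold change was 1.17 (SE 0.39, adjusted p 0.445 in limma). It was between 0.96 and 1.51 with each library left out, and LRP2 left the limits without DMOG library 1 or 2 or untreated library 1 or 2. The lens markers summed to 2166.0, 2181.5 and 1380.1 FPKM with DMOG and 1712.6, 1453.7 and 2403.8 FPKM without, and CRYBA1, a β-crystallin gene, measured 45.33, 48.86 and 12.63 against 14.53, 8.49 and 39.28 FPKM. DMOG library 3 was thus the lowest treated and untreated library 3 the highest untreated library in the lens sum, in CRYBA1, in LRP2 and in FTL. Not every lens marker did so. PROX1 measured 36.57, 30.35 and 38.27 FPKM with DMOG against 41.58, 40.89 and 22.67 FPKM without, the reverse order for both libraries. CRYBB3 was highest among the treated libraries in DMOG library 3 (25.6 FPKM). The part of the lens markers in these results was not tested. STEAP2, a metalloreductase of endosomes, measured 1.6 FPKM in DMOG library 1 and is listed at 0 in the other treated libraries, against 2.56, 2.92 and 3.23 FPKM in the untreated ones. Its log2 fold change of -2.07 (adjusted p 0.399) depends on the pseudocount and stayed at the limits with each library left out. The locus that holds transferrin, TF, joins it with SRPRB and had a log2 fold change of -0.08. SLC11A2, the endosomal iron transporter DMT1, averaged under 1 FPKM and was not tested.

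In iron export, 7 of 15 listed genes were tested and 1 was lower. SLC40A1 (ferroportin), the iron exporter of the cell membrane, measured 3.28, 2.85 and 2.13 FPKM with DMOG against 5.13, 5.81 and 3.99 FPKM without, with no overlap. On the log2 scale the fitted change was -0.75 (SE 0.27, unadjusted p 0.0260, adjusted p 0.485 in limma). SLC40A1 was outside the limits when DMOG library 3 was left out, or untreated library 1 or 2, with values from -0.89 to -0.61 over all 6 omissions. With all libraries kept it was also outside them under quantile normalization (-0.60, p 0.0599) and with the replicate number as a block (p 0.0515).

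Among storage and turnover genes, 7 of 10 were tested, 1 was higher and 1 lower. FTL, the ferritin light chain, measured 19.19, 15.1 and 11.6 FPKM with DMOG against 8.66, 7.61 and 12.74 FPKM without, with DMOG library 3 below untreated library 3. In the fit the log2 fold change was 0.64 (unadjusted p 0.0492, adjusted p 0.554 in limma), and FTL was at the limits only without DMOG library 3 or untreated library 3 once a library was left out. With all libraries kept it was outside them without a mean-variance trend (p 0.0689), with the replicate number as a block (p 0.0990) and without joined loci (p 0.0506). FTL was thus at the limits while FTH1 had a log2 fold change of -0.22, and a difference between the chains was not tested. In untreated cells FTL averaged 9.67 FPKM (SD 2.71) against 848 FPKM for FTH1. PCBP4, of the poly(C)-binding family that includes iron chaperones, measured 0.55 FPKM in DMOG library 1, is listed at 0 in the other treated libraries, and measured 1.7, 1.68 and 2.11 FPKM in the untreated ones (adjusted p 0.360). The locus of PCBP2, a ferritin iron chaperone in mammals, had overlapping groups.

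Heme synthesis had 12 tested loci, none of them at the limits in either direction (0 of 12, and 0 with an unadjusted p under 0.05). The loci with the smallest unadjusted p were the one that joins CLPX, a mitochondrial unfoldase gene, with PDCD7 and UBAP1L (log2 fold change -0.59, p 0.0666, limma) and SLC25A38, the mitochondrial glycine carrier (-0.53, p 0.0820). The row named ALAS2, the first enzyme, measured 8.12 to 11.64 FPKM with DMOG against 10.01 to 12.91 FPKM without. RefSeq lists ALAS2, ALAS-E and ALASN alike as synonyms of the chicken gene ALAS1, so the name does not settle which form the row holds. Of the erythroid markers, the globin rows were listed at 0 in the same libraries, while EPB42 was detected. Which form was measured was not tested.

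In heme breakdown, transport and control, 10 of 18 listed genes were tested and 2 were lower. The median log2 fold change of these tested loci was -0.62, beside -0.13 over all tested loci, a difference that was not tested. PGRMC2, a heme-binding membrane protein that in mouse fat carries heme to the nucleus, measured 5.34, 3.76 and 15.78 FPKM with DMOG against 18.93, 23.97 and 20.79 FPKM without. Its log2 fold change was -1.55 (SE 0.46, unadjusted p 0.0112, adjusted p 0.380 in limma), and it stayed at the limits with each library left out. Without DMOG library 3, the nearest to the untreated range, it was -2.12 with an adjusted p of 0.0445, against adjusted p from 0.128 to 0.788 in the other settings. Its relative PGRMC1, a binding partner of ferrochelatase, measured 79.27, 81.06 and 72.62 FPKM with DMOG against 61.01, 68.79 and 56.53 FPKM without. PGRMC1 thus lay higher without overlap (log2 fold change 0.32, p 0.0744, limma). NFE2L2, the factor that induces HMOX1 and ferritin genes under oxidative stress, measured 6.33, 2.66 and 1.92 FPKM with DMOG against 6.51, 9.2 and 7.76 FPKM without. Its log2 fold change was -1.14 (SE 0.40, unadjusted p 0.0222, adjusted p 0.460 in limma), and NFE2L2 left the limits without DMOG library 2 or 3 or untreated library 2 or 3. BACH1, the heme-sensing repressor of HMOX1, measured 2.03, 5.54 and 6.13 FPKM with DMOG against 4.31, 6.5 and 12.38 FPKM without. The groups overlapped (log2 fold change -0.70, p 0.190, limma). BLVRA, biliverdin reductase, which acts after heme oxygenase, reached at most 0.68 FPKM and was not tested.

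Mitochondrial iron and iron-sulfur cluster genes held 29 tested loci of 35 listed genes, with 0 at the limits and 0 at an unadjusted p under 0.05. Their median log2 fold change was -0.13, the same as over all tested loci. NARFL, of the cytosolic iron-sulfur assembly targeting complex, had the smallest unadjusted p (log2 fold change -0.58, p 0.0584, limma), followed by NUBP2, a scaffold of cytosolic cluster assembly (-0.62, p 0.0766). NARFL separated the groups without overlap and NUBP2 did not. In this list 3 of 29 tested loci were lower without overlap and 0 were higher, beside 11.4% and 4.47% of all tested loci.

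**Figure D5:**
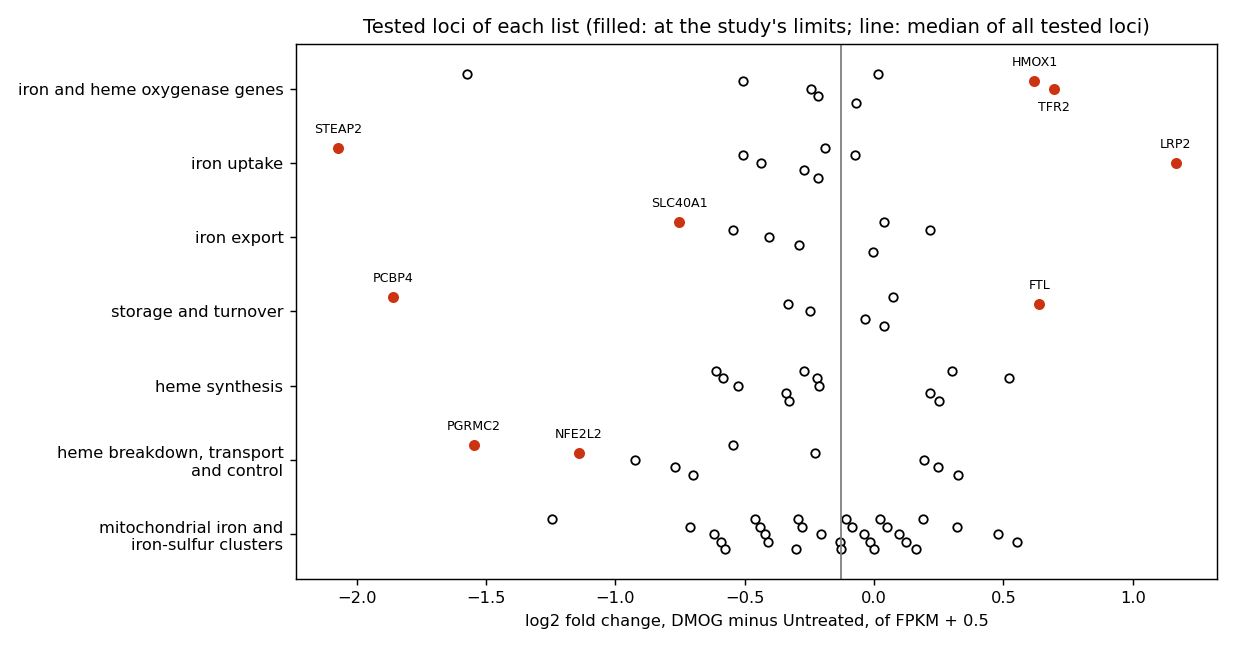
Log2 fold change of FPKM + 0.5 (horizontal axis, DMOG minus Untreated) of each tested locus in the group of 8 genes and in 6 lists of other iron and heme genes; filled points, named, were at the study's limits, and the vertical line is the median of all tested loci, -0.13. Named loci lie on both sides, and heme synthesis and the mitochondrial list have none.

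The genes whose pattern over the 6 libraries was nearest to that of TFR2 or HMOX1 were found by the root mean square distance of log2(FPKM + 0.5), centred on each gene's mean, over 7566 other tested loci of a single named gene. A distance of 0 means the same pattern, and a flat gene would stand 0.43 from TFR2 and 0.38 from HMOX1. Nearest to TFR2 were FGFR4 (0.13), TMEM56 (0.14), CENPU (0.14), RNASET2 (0.15) and ECI1 (0.16). FGFR4 measured 2.81, 4.85 and 3.41 FPKM with DMOG against 1.65, 2.23 and 1.99 FPKM without, so that library 2 was the highest of both groups, as for TFR2. Nearest to HMOX1 were NTNG2 (0.099), POLR2L (0.12), UBB (0.13), DEAF1 (0.14) and CLK2 (0.14). Of these, NTNG2 measured only 0.6 to 1.69 FPKM (unadjusted p 0.217, limma) and DEAF1 0.74 to 2.04 FPKM (p 0.359). At such levels the pseudocount weighs on the pattern. UBB, a ubiquitin gene, measured 90.91, 116.86 and 131.28 FPKM with DMOG against 64.9, 96.85 and 87.81 FPKM without. The nearest genes were picked out of all loci by this measure, so their likeness is a description.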

How the data were processed

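RNA was measured in 6 libraries of primary chick lens cells, 3 treated with DMOG and 3 untreated, grouped by their labels. Per the methods and the submitters' processing notes, reads of a stranded total RNA protocol were trimmed with Cutadapt, aligned by Bowtie2 and HISAT2 against galGal6, then assembled with StringTie, so that a locus can join genes. Tool versions and strand settings in counting were not given in the sources used here. The authors deposited FPKM per library, with 2 decimals. The ratio of FPKM that was deposited, its log2 and the deposited p-value (from edgeR, unadjusted) are the authors' own comparison and were not used. Depth is unknown, so precision is given by the spread of replicates alone.

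From the FPKM, log2(FPKM + 0.5) was fitted in limma 3.58.1 (R 4.3.3), with a mean-variance trend and treatment as the only term, at 9816 loci whose mean reached 1 FPKM. Fold changes are on that scale, which understates changes of low genes. P-values were adjusted by Benjamini-Hochberg over all tested loci. They set the difference between the groups against the spread between these libraries, moderated across loci. Exact permutation tests, ratios and summaries used Python 3.11.15, numpy 2.4.6 and pandas 2.3.3, and the fit was tested on simulated data. Of the tested loci, 892 join genes and 365 are small RNA.

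The genes, lists and tests were chosen with earlier results of these data known. Named genes are the 8 genes, the list genes at the study's limits or, where none is, the 2 with the smallest p, and the 5 nearest patterns to TFR2 and HMOX1. ALAS2, PGRMC1, BACH1, BLVRA, TF, SLC11A2, PCBP2, SKP1, CUL1, RBX1, EGLN3 and the cell type markers were named after their values were seen. RefSeq names were matched by symbol or synonym for all 8 genes. Promoter motifs and sequences were not analysed here. Alternatives were other pseudocounts (0.1 and 1), filters, scalings, moderation, weights, a replicate block, omission of locus classes and of each library. Scaling to an equal sum without small RNA was chosen after seeing the data.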

Additional observations from a re-analysis of the deposited data

How the results depend on the processing

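Of the 8 genes, FTH1 and NCOA4 kept their sign and their side of the study's limits in all 18 alternatives, while no gene had an adjusted p under 0.05 in any. TFR2 had log2 fold changes of 0.68 to 0.82 at the limits in every alternative that kept all libraries, and 0.48 to 0.85 with each library left out. HMOX1 fell outside the limits with a pseudocount of 1 (0.57), no filter (0.62), an equal sum without small RNA (0.61), array weights (0.55), the replicate block (0.62) and without joined loci (0.62), and ranged from 0.47 to 0.79 with each library left out. HMOX2 came to the limits with a pseudocount of 1 (-1.23), quantile normalization (-1.32), an equal sum without small RNA (-1.61), the replicate block (-1.57) and without small RNA loci (-1.57), and ranged from -2.001 to -0.73 with each library left out. FBXL5 ranged from -0.62 to -0.39 there. ACO1 changed sign with median scaling (0.058), quantile normalization (0.0261) and array weights (0.0114), and without DMOG library 3 (0.0078) or untreated library 3 (0.0285), with a range of -0.18 to 0.03 over left-out libraries. The IREB2 locus changed sign with array weights (-0.0052) and without DMOG library 3 (-0.12) or untreated library 1 (-0.08), reaching 0.12 without another library, and its ratio to ACO1 ranged from -0.13 to 0.21. HMOX1 and HMOX2 were too low for a mean of at least 5 FPKM, and the IREB2 locus drops out without joined loci. The cause of these shifts was not tested.

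The number of the 8 genes at the limits was 1 with no filter, with a mean of at least 5 FPKM, with array weights and without joined loci, and 0 to 4 over left-out libraries (4 without DMOG library 1, 1 without DMOG library 2 or untreated library 2, 0 without untreated library 1 or 3). The 7 list loci were 4 with a mean of at least 5 FPKM and 4 to 8 over left-out libraries (4 without untreated library 2). Over all loci, 767 were at the limits, 279 higher and 488 lower. With a mean of at least 5 FPKM, where fewer loci are tested, there were 414, 183 and 231. Lower loci numbered 323 with median scaling and 320 with quantile normalization, so that 56.1% and 56.2% of loci at the limits were higher, against 36.4%. Over left-out libraries, all loci at the limits ranged from 541 to 1008, higher loci from 213 to 395 and lower loci from 328 to 774, the last without DMOG library 1. Loci with an adjusted p under 0.05 numbered 19, 40 with median scaling, 34 with quantile normalization, 29 with an equal sum without small RNA, 38 with array weights and 5 with the replicate block, and 6 to 21 over left-out libraries (9 without DMOG library 2, 6 without untreated library 1 or 2).

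Same-numbered libraries did not deviate together (correlations of deviations -0.11, -0.17 and -0.23 across genes). Differences that span a whole library enter these correlations, so they cannot show whether same-numbered libraries shared a preparation. Under the replicate block, 2 of the 8 genes were at the limits, TFR2 and HMOX2. Without read counts, counting error cannot be set apart from other spread. For HMOX2, STEAP2, PCBP4 and SOX2, listed at 0 in some libraries, a fold is set by the pseudocount.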
